A study of Mus musculus with 9 samples.

Results

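The 10 circadian clock genes Arntl, Per1, Per2, Per3, Cry1, Cry2, Nr1d1, Nr1d2, Dbp and Tef were followed in spleen RNA libraries of 9 mice, each 16 weeks old. They were picked by symbol from a table of 21965 gene identifiers, and all 10 were found in it. The groups were BWF1 females (the F1 cross of NZB with NZW, named as lupus-prone in the series title), BWF1 males (same cross, named as non-lupus-prone) and BALB/c females (an unrelated inbred strain, also named as non-lupus-prone), with 3 libraries each. No treatment or engineered allele is named for any group. Sex differs between the BWF1 groups and strain between the females, whereas BWF1 males differ from BALB/c females in both. The hour of day at which spleens were taken is not given in the labels, so the levels below are not tied to a clock time.

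The sample labels name macrophages sorted as CD11b+F4/80+, and the design text names whole splenocytes. Itgam, which encodes CD11b, ranged from 0 to 6.66 CPM (counts per 1000000 of the scaled library) and was at 0 in 2 libraries, and Adgre1, which encodes F4/80, ranged from 5.26 to 20.8 CPM. Of the other 8 macrophage markers, all were counted in every library, and Csf1r (30.9 to 149 CPM), Vcam1 (17.6 to 84.3 CPM) and Lyz2 (67.8 to 294 CPM) reached the highest levels. The B cell markers Cd79a (250 to 485 CPM) and Ms4a1 (269 to 440 CPM) lay above Itgam and Adgre1 in every library. Since the labels and the design text differ, the RNA is described here as spleen cell RNA, and its cell makeup was not tested. In bulk RNA of this kind, fewer cells of a type and less RNA per cell cannot be told apart. Reads assigned to genes ranged from 458608 (BWF1 female 1) to 4305003 (BWF1 male 3) per library, and 42.3% to 76.6% of them fell on Lars2, so that 1 count stood for between 0.208 and 2.21 CPM of the scaled library. They made up 1.29% to 2.05% of the alignments tallied in the BWF1 libraries and 2.14% to 2.82% in BALB/c, without overlap. Most of the rest fell on no gene (37.2% to 42.1%) or were not unique (55.9% to 61.5%). The part of this share in the differences below was not tested. File names carried the tag ORIG for BWF1 female 2, BWF1 male 2 and all BALB/c libraries and the tag RL for the other 4, with no explanation in the labels.

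In the clock loop, the ARNTL protein pairs with CLOCK at E-box sequences and turns on the Per, Cry, Nr1d, Dbp and Tef genes. The PER and CRY proteins then block ARNTL and CLOCK, NR1D proteins (the REV-ERBs) repress Arntl through RORE sequences, and DBP and TEF act on D-box sequences. Arntl RNA therefore runs roughly opposite in phase to Dbp, Nr1d1 and the Per genes in peripheral mouse tissues, spleen included. A shift of the collection hour can thus move Arntl and these genes in opposite directions, though not at every hour. Per1 in addition responds acutely to cAMP and glucocorticoid signals in mice.

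Promoter stretches searched for the letters of these sequences are given here, because the comparison turns on Arntl against genes of the opposite phase. Binding to them was not measured, and the second Per1 stretch holds none of the marked letters. RefSeq promoter windows of GRCm38.p6, running from 250 bases before to 50 after a start, existed for 9 of the 10 genes in 12 windows. Per2 had none. Capitals mark the E-box CACGTG, the D-box TTATGTAA or TTATGCAA, or the RORE core TAGGTCA or its variant TAGGTTA, searched on both strands. The first Per1 stretch ends 2 bases before the start position and the second directly before it, the others surround the match, and all read 5′ to 3′ along the gene.
Per1 first start, chr11:69098699-69098947, plus strand: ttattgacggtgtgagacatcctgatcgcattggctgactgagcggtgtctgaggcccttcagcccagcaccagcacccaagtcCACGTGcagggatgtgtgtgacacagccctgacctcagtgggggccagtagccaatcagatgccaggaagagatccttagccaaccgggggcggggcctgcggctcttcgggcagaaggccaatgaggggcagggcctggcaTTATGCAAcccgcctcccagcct
Per1 second start, chr11:69099902-69100151, plus strand: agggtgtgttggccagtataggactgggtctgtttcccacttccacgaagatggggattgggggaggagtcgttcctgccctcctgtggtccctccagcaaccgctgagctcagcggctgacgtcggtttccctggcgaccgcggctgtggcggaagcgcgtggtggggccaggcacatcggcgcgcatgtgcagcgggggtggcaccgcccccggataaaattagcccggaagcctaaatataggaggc
Cry1, chr10:85185082-85185141, minus strand: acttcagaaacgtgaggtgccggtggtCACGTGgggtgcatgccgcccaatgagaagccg
Tef first start, chr15:81802535-81802562, plus strand: tgctgtggctcCACGTGctgcagctggc
Tef second start, chr15:81811249-81811308, plus strand: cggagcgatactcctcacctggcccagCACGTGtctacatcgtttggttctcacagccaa
Per3, chr4:151044789-151044897, minus strand: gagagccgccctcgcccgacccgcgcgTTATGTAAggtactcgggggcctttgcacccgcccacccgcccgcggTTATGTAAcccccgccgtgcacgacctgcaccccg
Arntl first start, chr7:113207494-113207514, plus strand: tggtcggaaagTAGGTTAgtg
Arntl second start, chr7:113207530-113207558, plus strand: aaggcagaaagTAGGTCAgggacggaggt

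The E-box was found in 4 of the 12 windows (Per1, Cry1 and both of Tef), and in 7.15% of all 32851 windows. In Per1 its first base lay 166 bases before the first start, in Cry1 60 bases before the start. The D-box TTATGTAA occurred at 2 places in Per3, 205 and 158 bases before the start, and in 0.938% of all windows. The D-box TTATGCAA lay 24 bases before the first Per1 start and was present in 0.743% of all windows. The RORE core was found in 1 Arntl window, starting at base 31 counted from the second start as base 1, and in 2.61% of all windows. The RORE variant was found in both Arntl windows, which overlap and share that match, and in 1.44% of all windows. The full cAMP response element TGACGTCA was in none of the 12 windows and in 1.79% of all, and its 5-letter core TGACG was in 4 of the 12, including both Per1 windows, and in 20.8% of all, the shared letters of the full element included. These matches describe letters only. No window of Cry2, Nr1d1, Nr1d2 or Dbp held an E-box, D-box or RORE of these letters.

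Of the members, 6 (Arntl, Per1, Per2, Cry1, Nr1d2 and Tef) passed the filter on low counts and were tested among 7719 genes with edgeR's quasi-likelihood test, with p-values adjusted by Benjamini-Hochberg over all 7719. The other 4 (Per3, Cry2, Nr1d1 and Dbp) had 31 to 86 counts over the 9 libraries and were not tested; their fold changes come from a fit without the filter. Per kilobase of exon, Per1 was the most abundant member, at 9.13 CPM per kb averaged over the 9 libraries. Cry1 followed at 4.56, Nr1d2 at 3.25, Tef at 2.21, Arntl at 1.97, Dbp at 1.48, Per2 at 1.30, Cry2 at 1.18, Nr1d1 at 0.922 and Per3 at 0.446 CPM per kb. Per1 was above Cry1 in 9 of 9 libraries. Every other neighbour in that order was higher in only 5 to 7 of the 9 libraries, and the ranges of all neighbours overlapped.

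Per1 was lower in both BWF1 groups than in BALB/c, and no other tested member passed the test in any of the comparisons. BWF1 females against males of the cross gave 0 calls among the 6 tested members, beside 2.19% of all genes tested; 0 of the 6 had an unadjusted p under 0.05, beside 16.4% of all genes tested, and DESeq2 also called 0. BWF1 females against BALB/c gave 1 of 6 (Per1, lower), beside 3.82% of all genes called and 2.03% called lower. BWF1 males against BALB/c gave 1 of 6 (Per1, lower), beside 3.52% of all genes and 1.85% called lower. The last 2 comparisons share the BALB/c libraries, so the Per1 calls are not independent of each other. The median log2 fold change of the 6 tested members was 0.12 for BWF1 females against males of the cross, 0.24 for BWF1 females against BALB/c and -0.31 for BWF1 males against BALB/c; over all genes tested the medians were 6e-04, -0.0024 and -0.0028 in the same order.

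**Figure D1:**
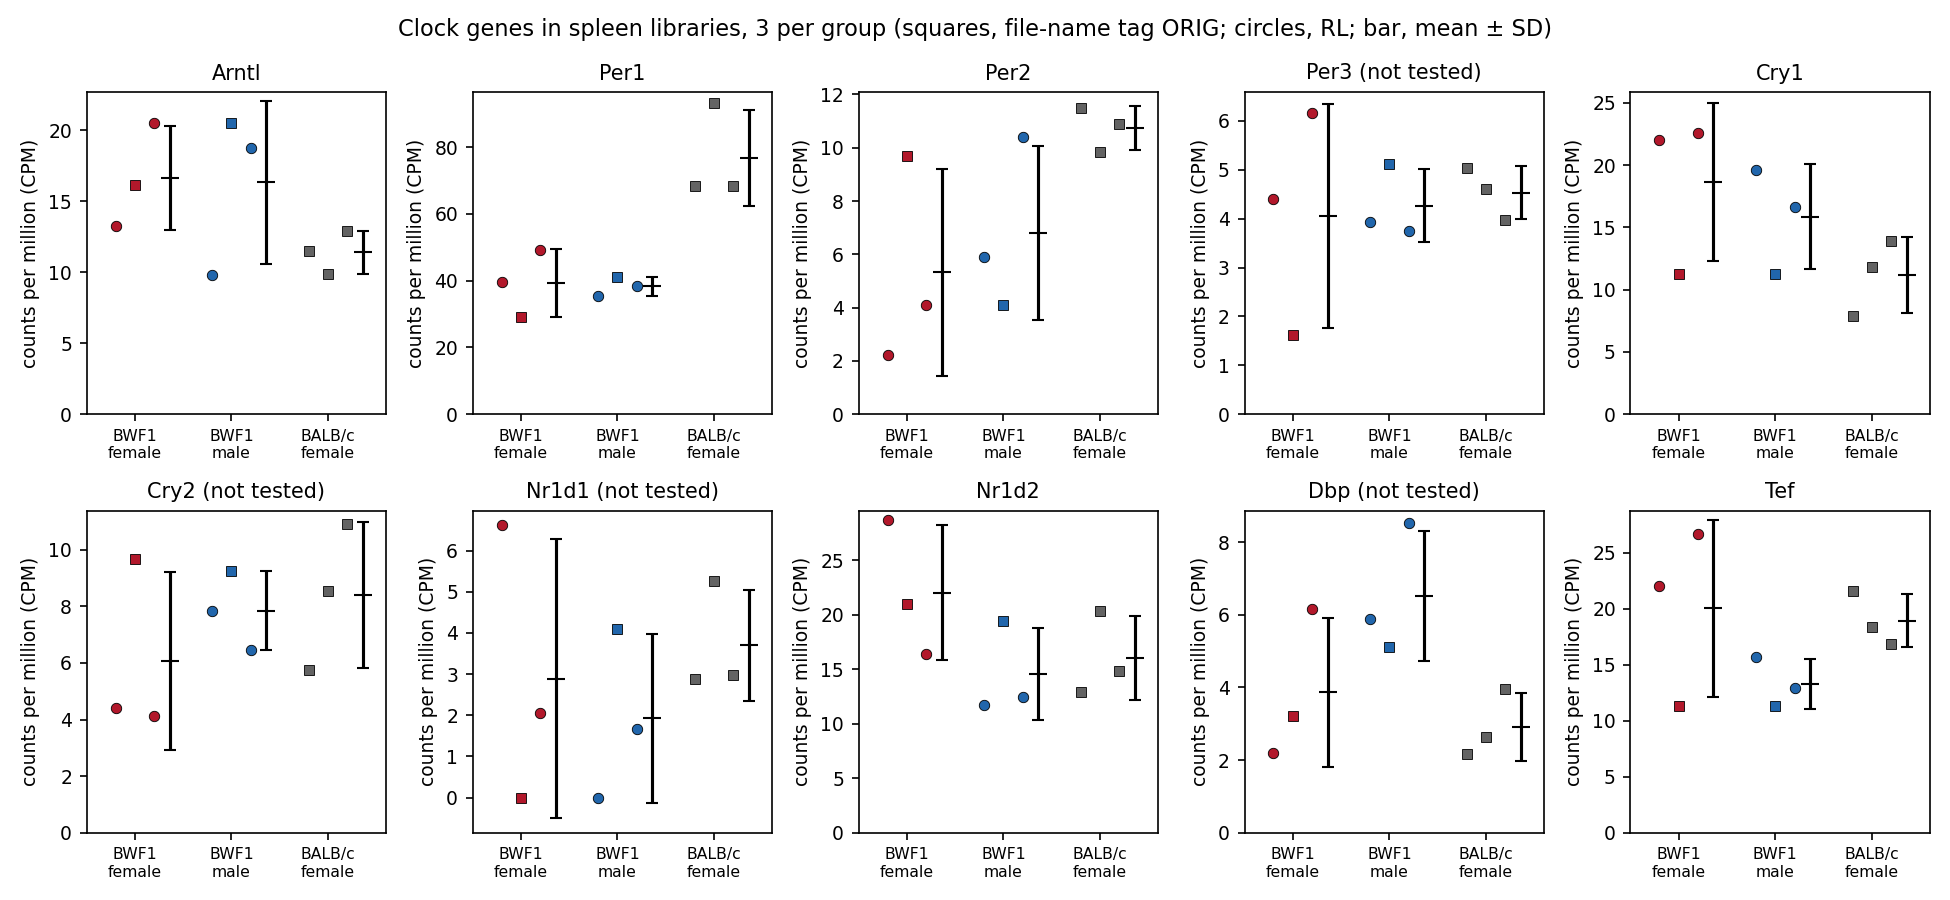
CPM (y axis, from 0 except where an SD reaches below it) of each clock gene in the 3 libraries of BWF1 females, BWF1 males and BALB/c; squares carry the file-name tag ORIG, circles RL, and the black bar is the group mean ± SD. The BALB/c libraries lie at 68.3 to 93.3 CPM for Per1, above all 6 BWF1 libraries, whereas the groups of most other genes overlap.

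The activator Arntl (ENSMUSG00000055116, mm10 chromosome 7, 113207465 to 113314126) had 13.2, 16.1 and 20.5 CPM in the BWF1 females, 9.81, 20.5 and 18.7 CPM in the BWF1 males and 11.5, 9.86 and 12.9 CPM in BALB/c. All BWF1 female libraries lay above all BALB/c libraries, the nearest pair being 13.2 CPM in BWF1 female 1 and 12.9 CPM in BALB/c female 3, and the 5 counts of BWF1 male 1 put it lowest of all 9. The log2 fold change was 0.55 (SE 0.36, edgeR adjusted p = 0.462) for BWF1 females against BALB/c and 0.59 (SE 0.32, adjusted p = 0.382) for BWF1 males against BALB/c. Between the sexes of BWF1 it was -0.043, with a 95% interval of -0.75 to 0.67, so a difference of that size in either direction was not detectable at this depth.

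The repressor Per1 (ENSMUSG00000020893, chromosome 11, 69095217 to 69109960) had 39.7, 29.0 and 49.3 CPM in the BWF1 females, 35.3, 41.0 and 38.5 CPM in the BWF1 males and 68.3, 93.3 and 68.4 CPM in BALB/c. The 3 BALB/c libraries were the 3 highest of the 9 and the BWF1 groups overlapped each other throughout. Means were 39.3 ± 10.1 CPM in the BWF1 females, 38.3 ± 2.86 CPM in the BWF1 males and 76.7 ± 14.4 CPM in BALB/c (SD, n = 3 each). The log2 fold change was -0.97 (SE 0.22, edgeR adjusted p = 0.00907) for BWF1 females against BALB/c, a level 0.510 times that of BALB/c, and -0.996 (SE 0.21, adjusted p = 0.00536) for BWF1 males against BALB/c, 0.501 times. Between the sexes of BWF1 it was 0.024, with a 95% interval of -0.44 to 0.49. For BWF1 females the call was lost with DESeq2 (-0.98, adjusted p = 0.0517), with library totals in place of scaled totals (-1.27, adjusted p = 0.0589), without BWF1 female 2 (-0.78, adjusted p = 0.0685) and without BALB/c female 2 (-0.81, adjusted p = 0.0884), and it held with the file-name tag as a term (-1.11, adjusted p = 0.0317). For BWF1 males it was lost without BALB/c female 2 (-0.83, adjusted p = 0.0844) and in the libraries tagged ORIG alone (-0.88, adjusted p = 0.0791), where the lone BWF1 male library is assumed to vary like the rest, and the direction was the same in each of these fits.

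Its paralogue Per2 (ENSMUSG00000055866, chromosome 1, 91415982 to 91459324), also a repressor of the loop, had 2.21, 9.68 and 4.11 CPM in the BWF1 females, 5.88, 4.10 and 10.4 CPM in the BWF1 males and 11.5, 9.86 and 10.9 CPM in BALB/c. The BALB/c libraries lay close together, whereas those of both BWF1 groups spread widely, and the lowest rested on 1 count. The BWF1 female libraries all lay below the BALB/c ones, and the log2 fold change was -0.91 (SE 0.52, edgeR adjusted p = 0.392). For BWF1 males against BALB/c it was -0.47 (SE 0.42, adjusted p = 0.64) with overlapping groups. Within groups, the pooled SD of Per2 was 0.56 on the log2 scale, at percentile 88.4 of all genes tested, against 0.27 and percentile 35.4 for Per1. Per2 had counts of 1, 6 and 2 in the BWF1 females and 3, 4 and 50 in the BWF1 males. The percentile is over genes of all levels, and the part of counting error in this spread was not tested. Per3 (ENSMUSG00000028957, chromosome 4, 151003652 to 151044665), the remaining Period gene, lay between 1.61 and 6.16 CPM in all 9 libraries with full overlap of the groups. Its 95% intervals, -1.65 to 1.12 for BWF1 females and -1.22 to 0.95 for BWF1 males against BALB/c in log2 fold change, leave room for large differences either way.

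Of the cryptochromes, the repressor partners of the PER proteins, Cry1 did not pass the test in any comparison and Cry2 was not tested. Cry1 (ENSMUSG00000020038, chromosome 10, 85131700 to 85185064) had 22.1, 11.3 and 22.6 CPM in the BWF1 females, 19.6, 11.3 and 16.7 CPM in the BWF1 males and 7.91, 11.8 and 13.9 CPM in BALB/c. BWF1 female 2 and BWF1 male 2, the BWF1 libraries tagged ORIG, lay within the BALB/c range and the other 4 above it. The log2 fold change was 0.72 (SE 0.37, edgeR adjusted p = 0.333) for BWF1 females and 0.49 (SE 0.34, adjusted p = 0.523) for BWF1 males against BALB/c, and with the tag as a term the value for BWF1 males became -0.081. Cry2 (ENSMUSG00000068742, chromosome 2, 92403646 to 92434043) lay between 4.11 and 10.9 CPM in the 9 libraries, and all groups overlapped.

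Of the REV-ERB genes, Nr1d2 gave no call either and Nr1d1 was not tested. Nr1d2 (ENSMUSG00000021775, chromosome 14, 18204054 to 18239127), a repressor of Arntl, had 28.7, 20.97 and 16.4 CPM in the BWF1 females, 11.8, 19.5 and 12.5 CPM in the BWF1 males and 12.9, 20.4 and 14.9 CPM in BALB/c. BWF1 female 1 was the highest of the 9 libraries and all groups overlapped. The log2 fold change was 0.59 (SE 0.34, edgeR adjusted p = 0.404) for BWF1 females against males of the cross and 0.44 (SE 0.33, adjusted p = 0.543) for BWF1 females against BALB/c. Nr1d1 (ENSMUSG00000020889, chromosome 11, 98767932 to 98775333), its paralogue and one of the most strongly cycling clock genes in mouse tissues, had only 31 counts in all: 3, 0 and 1 in the BWF1 females, 0, 4 and 8 in the BWF1 males and 4, 8 and 3 in BALB/c. In the fit without the filter its log2 fold change against BALB/c was -0.56 (95% interval -2.23 to 1.11) for BWF1 females and -0.88 (95% interval -2.20 to 0.44) for BWF1 males. The counts of 0 in BWF1 female 2 and BWF1 male 1 allow levels of up to 4.84 and 5.88 CPM, above those of most libraries with counts. Pooled over each group, the exact Poisson 95% interval was 0.698 to 6.56 CPM in the BWF1 females, 0.986 to 3.33 CPM in the BWF1 males and 2.14 to 6.31 CPM in BALB/c, for counting error only. Of its exon bases, 8.55% lie opposite exons of Thra, and since the kit is not described as marking strand, reads there cannot be told apart.

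The D-box activators Dbp and Tef, which are outputs of the loop in the phase of the Per and Nr1d genes, had no shared direction across the groups. Tef had no call in any comparison and Dbp was not tested. Dbp (ENSMUSG00000059824, chromosome 7, 45705088 to 45710203) had 2.21, 3.23 and 6.16 CPM in the BWF1 females, 5.88, 5.13 and 8.54 CPM in the BWF1 males and 2.16, 2.63 and 3.96 CPM in BALB/c. The BWF1 male libraries all lay above the BALB/c ones, and BWF1 females overlapped both. In the fit without the filter the log2 fold change was 1.32 (95% interval 0.26 to 2.38, edgeR adjusted p = 0.19) for BWF1 males against BALB/c, -0.92 (adjusted p = 0.594) for BWF1 females against males of the cross and 0.40 (adjusted p = 0.874) for BWF1 females against BALB/c. These rest on 6 counts in the BWF1 females, 49 in the BWF1 males and 11 in BALB/c, and 18% of the Dbp exon bases lie opposite exons of Sphk2. Tef (ENSMUSG00000022389, chromosome 15, 81802421 to 81826863) had 22.1, 11.3 and 26.7 CPM in the BWF1 females, 15.7, 11.3 and 12.9 CPM in the BWF1 males and 21.6, 18.4 and 16.9 CPM in BALB/c. All BWF1 male libraries lay below all BALB/c ones (log2 fold change -0.54, SE 0.32, edgeR adjusted p = 0.42), and BWF1 female 2 stood apart from the other BWF1 females. For BWF1 females against BALB/c the log2 fold change of Tef was 0.049, and -0.22 with library totals and -0.43 with the tag as a term.

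**Figure D2:**
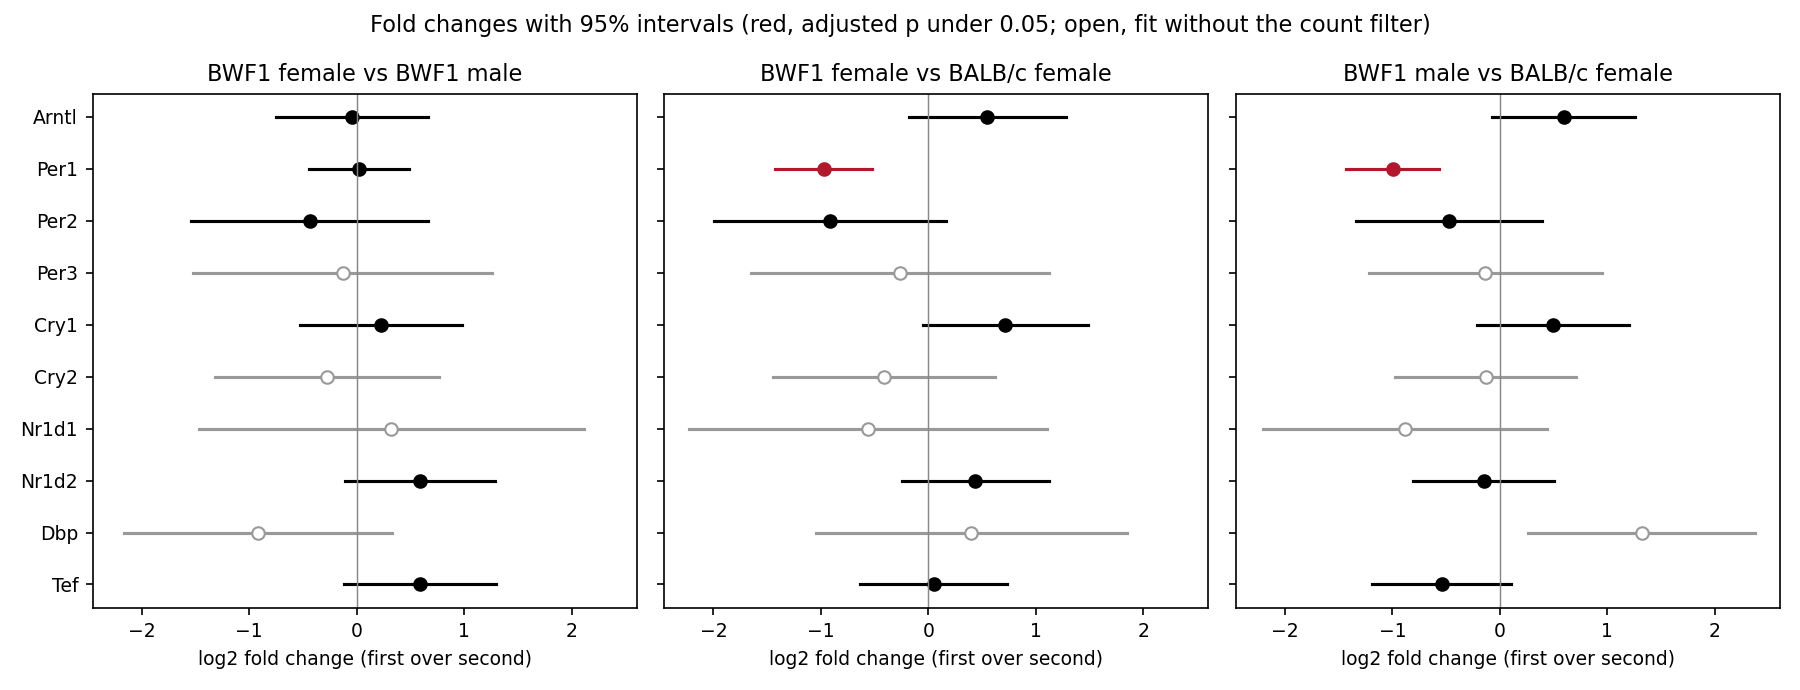
Log2 fold change (x axis, first group over second) of each clock gene with its 95% interval in the 3 comparisons; red marks an adjusted p under 0.05 and open grey points come from the fit without the count filter. The intervals of Per1 against BALB/c end at -0.52 for BWF1 females and -0.56 for BWF1 males, and the Arntl intervals reach from -0.18 to 1.29 and from -0.071 to 1.26.

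Groups that did not overlap were found for 0 of the 6 tested members between the sexes of BWF1, beside 18.7% of all genes tested. They were found for 3 of 6 (Arntl higher, Per1 and Per2 lower) between BWF1 females and BALB/c, beside 21.2%, and for 2 of 6 (Per1 and Tef lower) between BWF1 males and BALB/c, beside 23.5%. Among the genes opposite in phase to Arntl, Per1 and Per2 were thus on the low side in the BWF1 females where Arntl was on the high side. Nr1d2 and Dbp were not: their fold changes in the BWF1 females against BALB/c were 0.44 and 0.40 on the log2 scale, in the same direction as that of Arntl. The untested Nr1d1 and Per3, at -0.56 and -0.27, were on the side of the Per genes, with wide intervals that include 0.

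The phase pattern was summarised per library as the log2 CPM of Arntl minus the mean log2 CPM of the tested genes of opposite phase (Per1, Per2 and Nr1d2), as a description with no test. It was -0.18, -0.16 and 0.35 in the BWF1 females, -0.44, 0.36 and 0.10 in the BWF1 males and -0.86, -1.33 and -0.75 in BALB/c. The 3 BALB/c libraries had the 3 lowest values of the 9, and the BWF1 groups overlapped throughout. Group means were 0.0051 ± 0.30 in the BWF1 females, 0.0092 ± 0.41 in the BWF1 males and -0.98 ± 0.31 in BALB/c (SD, n = 3 each). The difference of means was 0.99 for each BWF1 group against BALB/c, and between 0.81 and 1.22 on leaving out any 1 library.

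The pieces of that difference were unequal. Arntl minus Per1 averaged -1.16 in the BWF1 females, -1.21 in the BWF1 males and -2.59 in BALB/c, with all BALB/c libraries below all BWF1 ones. Arntl minus Per2 averaged 1.54 in the BWF1 females, 1.11 in the BWF1 males and 0.071 in BALB/c, again with BALB/c below both. Arntl minus Nr1d2 averaged -0.36 in the BWF1 females, 0.12 in the BWF1 males and -0.43 in BALB/c, and all groups overlapped. Arntl minus Dbp averaged 1.80 in the BWF1 females, 1.12 in the BWF1 males and 1.56 in BALB/c, so that with Dbp alone in place of the other genes the difference from BALB/c was 0.24 for BWF1 females and -0.44 for BWF1 males. Arntl minus Nr1d1 averaged 2.34 in the BWF1 females, 2.51 in the BWF1 males and 1.33 in BALB/c, where all BWF1 males lay above all BALB/c libraries and the BWF1 females overlapped them, on 31 counts in all. Arntl minus Per3 averaged 1.77 in the BWF1 females, 1.57 in the BWF1 males and 1.09 in BALB/c, and both BWF1 groups overlapped BALB/c. All BALB/c libraries thus lay below all 6 BWF1 libraries with Per1 and with Per2, and not with Per3, Nr1d1, Nr1d2 or Dbp.

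**Figure D3:**
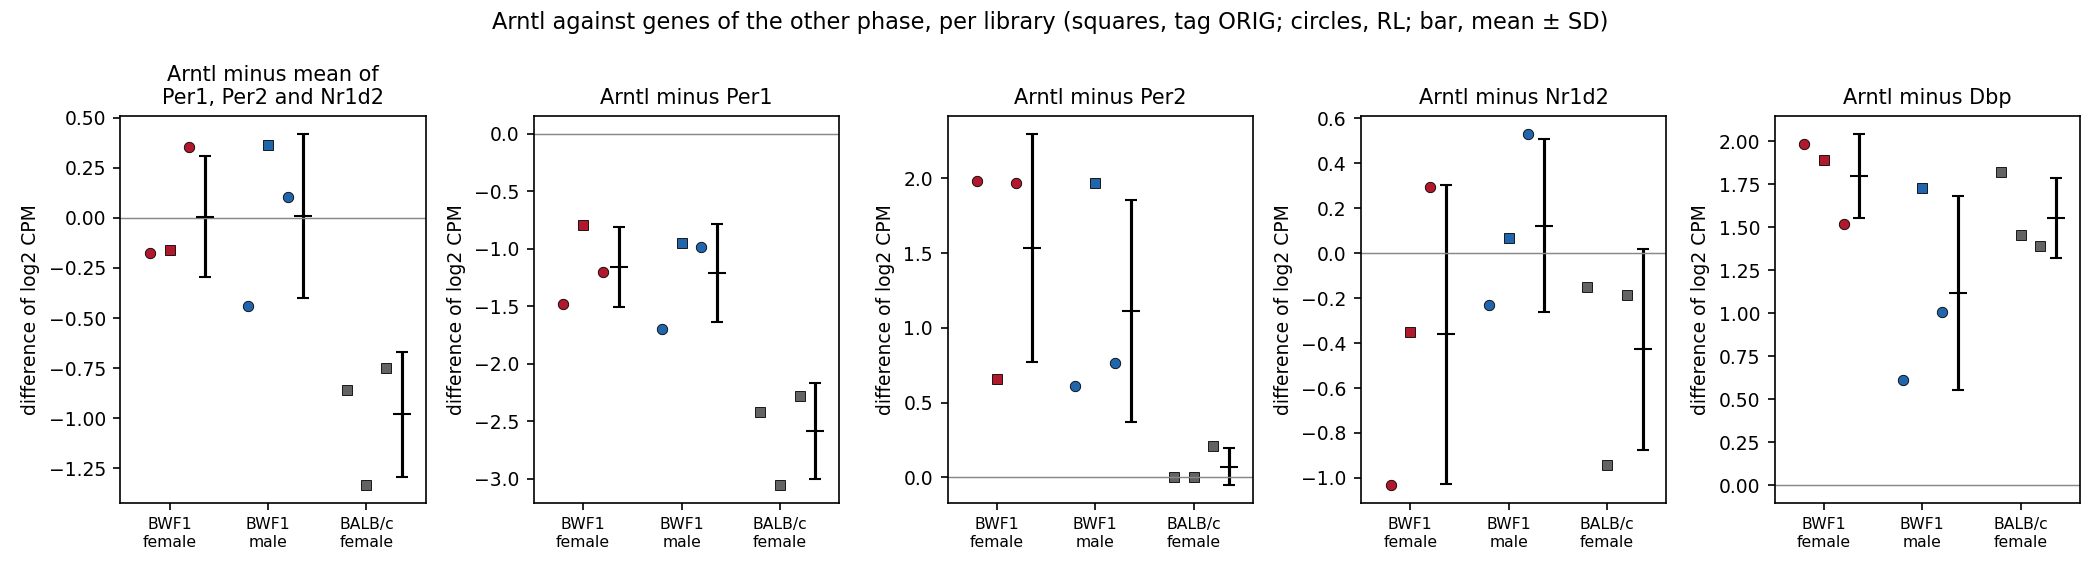
Difference of log2 CPM (y axis) between Arntl and the mean of Per1, Per2 and Nr1d2, and between Arntl and each of Per1, Per2, Nr1d2 and Dbp, per library; squares carry the tag ORIG, circles RL, and the bar is the group mean ± SD. BALB/c libraries lie below the BWF1 libraries in the first 3 panels and among them for Nr1d2 and Dbp.

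Across the 9 libraries, Arntl was not related to any other member beyond what reordering the libraries gives. Of the 9 relations computed, all had a Benjamini-Hochberg adjusted p of 0.971 for Pearson's r and at least 0.872 for Spearman's rho (exact permutation tests over all orders, 2-sided). The largest positive coefficient was with Dbp (r = 0.538, exact p = 0.134; rho = 0.467, exact p = 0.213), the sign opposite to that of clock phase, and r was 0.412 without the 2 libraries farthest from the Arntl median (BWF1 female 3 and BWF1 male 2) and 0.493 after subtracting group means. For Per1 the BALB/c libraries stood apart from the rest, so that no pooled coefficient is given. The pooled value was the most negative Pearson coefficient of the 9, in the sign of clock phase, and stayed negative without those 2 libraries. With group means subtracted, r for Per1 was 0.218. For Per2 r was -0.281 (rho = -0.383), 0.127 without those 2 libraries and 0.157 with group means subtracted, so its negative sign rested on those libraries and on the groups. For Nr1d2 r was 0.113 (rho = 0.25) and 0.0532 without them. Leaving them out turned r negative for Per3 (0.0571 to -0.53) and made it more negative for Tef (-0.24 to -0.595) and Nr1d1 (-0.0136 to -0.185). It moved r toward 0 for Cry1 (0.17 to 0.0891) and Cry2 (-0.188 to -0.0629). With group means subtracted, r was 0.229 for Per3, -0.164 for Tef and 0.266 for Nr1d1.

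Within groups, the members of like phase had coefficients of both signs. With group means subtracted, r was -0.545 between Per1 and Per2, -0.513 between Per2 and Nr1d2, -0.557 between Per2 and Tef and -0.307 between Nr1d2 and Tef. It was 0.218 between Per1 and Nr1d2 and 0.616 between Per1 and Tef, and Cry1, of later phase, had 0.661 with Tef. These are descriptions over 9 libraries that share low counts and 1 scaling each. Of 7636 named genes searched, those most like Arntl over the 9 libraries were Ttc7b (r = 0.912), Ptpn4 (0.905) and Zfp746 (0.902), and those most opposite were Vrk2 (-0.93), Atp6v1h (-0.906) and Cisd2 (-0.888). For Dbp they were Akna (0.932), Mark2 (0.931) and Bcl3 (0.922), and on the opposite side Txndc16 (-0.985), St14 (-0.94) and Insig1 (-0.934). The few highest of so many coefficients over 9 points are large by selection.

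The other genes of the loop were taken from a list of 13, of which 5 were tested. In BWF1 females, 0 of the 5 were called against BWF1 males (0 at an unadjusted p under 0.05) and 0 against BALB/c (2 at an unadjusted p under 0.05, beside 16.9% of all genes tested), and DESeq2 called 0 in both. Against BALB/c, 1 was called without the filter, with the 2 groups alone, and without BWF1 female 2, BWF1 male 1 or BWF1 male 3. In BWF1 males against BALB/c, 3 of the 5 had an unadjusted p under 0.05, beside 16.3% of all genes tested. With Lars2 left out, the 2 groups alone, the earlier edgeR method or without BWF1 female 3, 1 gene of the list was called lower. In the main fit 1 was called, Bhlhe41, a repressor at E-boxes. It was higher in the BWF1 males, beside 1.67% of all genes tested called higher. It had 46.3, 17.7 and 82.1 CPM in the BWF1 females, 92.2, 53.3 and 22.1 CPM in the BWF1 males and 15.8, 20.4 and 20.8 CPM in BALB/c. Only BWF1 males lay wholly above BALB/c, and the highest library was several times the lowest within both BWF1 groups. The fold change of Bhlhe41 for BWF1 males was 1.48 on the log2 scale (SE 0.40, edgeR adjusted p = 0.0374). Its call was lost with DESeq2, library totals, the replicate block, the tag as a term and the earlier edgeR method. The call was also lost without BWF1 male 1, BWF1 male 2 or any 1 of the BALB/c libraries.

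Its paralogue Bhlhe40, a repressor at the same sequences, had 30.9, 35.5 and 20.5 CPM in the BWF1 females, 31.4, 29.7 and 29.4 CPM in the BWF1 males and 43.8, 46.7 and 56.5 CPM in BALB/c. The BALB/c libraries were the 3 highest, as for Per1, but with a log2 fold change of -0.74 (edgeR adjusted p = 0.0827) for BWF1 females and -0.70 (adjusted p = 0.086) for BWF1 males the test was not passed. Clock, the partner of ARNTL, had 19.8, 27.4 and 20.5 CPM in the BWF1 females, 15.7, 14.4 and 15.2 CPM in the BWF1 males and 21.6, 24.3 and 24.8 CPM in BALB/c. BWF1 males were the 3 lowest, and the log2 fold change of -0.64 against BALB/c had an edgeR adjusted p of 0.217. Of 10 kinases and ubiquitin ligases that set the stability of the PER and CRY proteins, 9 were tested and 0 called in any comparison by edgeR or DESeq2; 1, Fbxw7, had an unadjusted p under 0.05 (BWF1 females against BALB/c, log2 fold change 0.71, edgeR adjusted p = 0.129). Of 10 output genes, 5 were tested and 0 called by either tool; 1, Por, had an unadjusted p under 0.05 (BWF1 females against males of the cross, -0.80, edgeR adjusted p = 0.188).

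Several other gene groups held members that were lower in BWF1 than in BALB/c libraries. Beside the counts below, 2.03% of all genes tested were called lower in the BWF1 females and 1.85% in the BWF1 males than in BALB/c. Of 12 tested immediate early genes, which respond within minutes to stimulation, 9 were lower in the BWF1 females and 3 in the BWF1 males than in BALB/c, among them Jun, with log2 fold changes of -1.56 for BWF1 females and -1.60 for BWF1 males, and Klf6, with -1.38 for BWF1 females and -0.96 for BWF1 males. The median log2 fold change of the 12 against BALB/c was -1.04 for BWF1 females and -0.50 for BWF1 males. The summed level of all 13 on the list was 809 to 926 CPM in the BWF1 females, 1020 to 1185 CPM in the BWF1 males and 1441 to 2226 CPM in BALB/c, without overlap of either BWF1 group with BALB/c. Of 8 heat shock genes, 4 were lower in the BWF1 females and 3 in the BWF1 males than in BALB/c, and the summed level was 682 to 823 CPM in the BWF1 females, 723 to 1402 CPM in the BWF1 males and 1569 to 2342 CPM in BALB/c. The median log2 fold change of the 8 against BALB/c was -0.71 for BWF1 females and 0.042 for BWF1 males, so that in BWF1 males the median was not on the side of the 3 calls. Of 5 tested glucocorticoid-responsive genes, 3 were lower in the BWF1 females (Tsc22d3, Sgk1 and Dusp1) and 1 in the BWF1 males (Dusp1) than in BALB/c; here the summed level of 183 to 223 CPM in the BWF1 females lay below, and that of 248 to 341 CPM in the BWF1 males overlapped, the 340 to 428 CPM of BALB/c. The median log2 fold change of the 5 was -0.92 for BWF1 females and -0.18 for BWF1 males. The cold-inducible Cirbp and Rbm3 were both lower in the BWF1 males, and Rbm3 was lower in the BWF1 females, than in BALB/c. For BWF1 females the number called ranged from 0 to 2 over the alternatives, with 0 without BWF1 female 1, BALB/c female 1 or BALB/c female 3. Between the sexes of BWF1, 1.23% of all genes tested were called lower in the females and 0.959% higher. Lower in the females were the immediate early Fos, the heat shock genes Hsph1 and Hspa8 and the glucocorticoid-responsive Tsc22d3. Higher were the heat shock gene Hspa1b and Cirbp, whereas Per1 was not called between the sexes. Over the alternatives 0 to 5 heat shock genes and 0 to 1 of each other list were called there.

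BALB/c female 2, without which both Per1 calls were lost, had the highest Per1 level of the 9 libraries and also the highest summed immediate early, heat shock and glucocorticoid-responsive levels. It also had the highest summed erythroid level (3679 CPM), the lowest share of reads on Lars2 (42.3%) and the highest TMM scaling factor (1.40). The part of these gene lists and of cell makeup in the Per1 difference was not tested, and the file-name tag entered only through the Per1 fits given above. The summed level of 7 erythroid markers was 805 to 2195 CPM in the BWF1 females, 141 to 1271 CPM in the BWF1 males and 1222 to 3679 CPM in BALB/c. The summed level of 10 macrophage markers was 218 to 234 CPM in the BWF1 females, 476 to 710 CPM in the BWF1 males and 336 to 400 CPM in BALB/c.

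**Figure D4:**
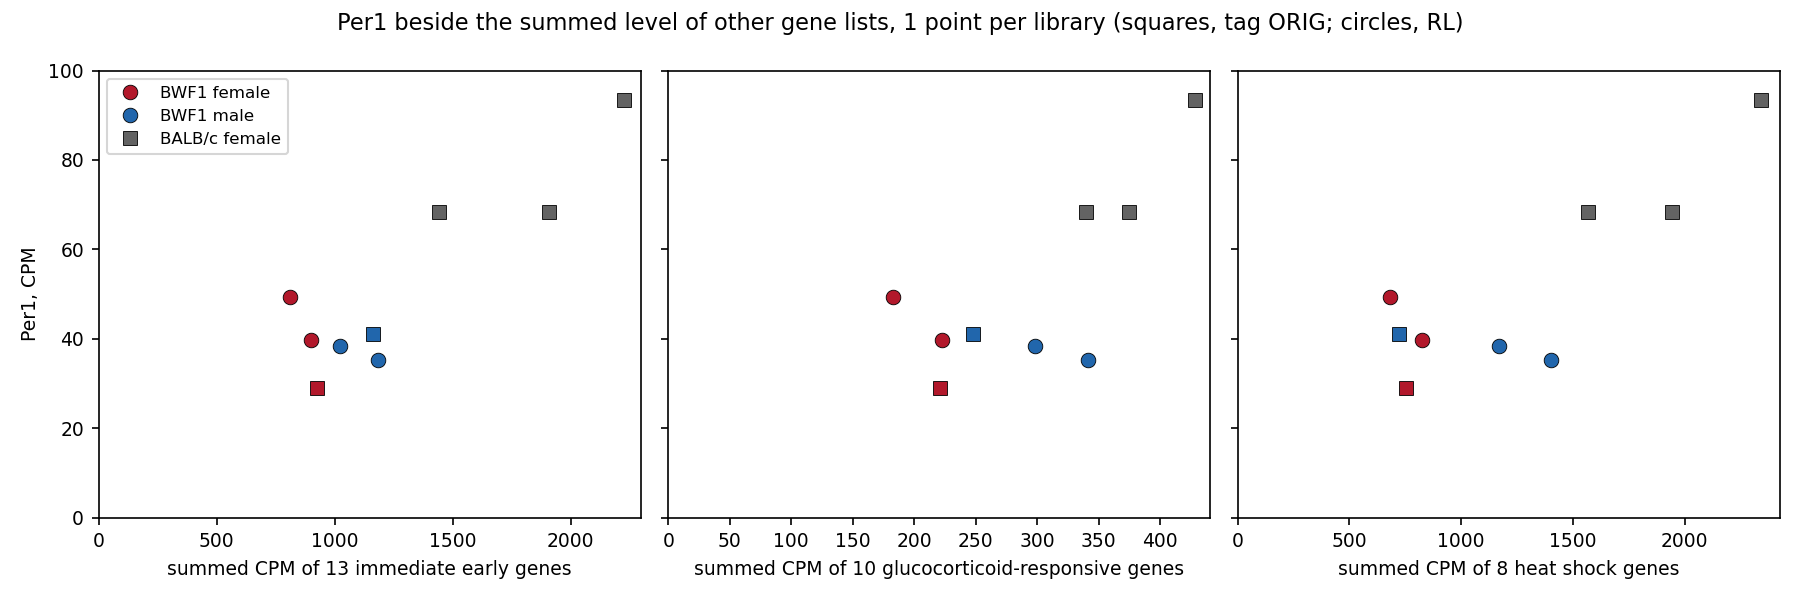
Per1 (y axis, CPM) against the summed CPM of immediate early, glucocorticoid-responsive and heat shock genes (x axes), 1 point per library, in the BWF1 females, BWF1 males and BALB/c; squares carry the tag ORIG, circles RL. The 3 BALB/c libraries form the upper right of the first and last panels, and the 6 BWF1 libraries lie between 29.0 and 49.3 CPM of Per1.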

How the data were processed

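The authors deposited raw counts of reads per Ensembl gene, in the form HTSeq writes them per the file headers and summary lines; per the submitters' processing notes, STAR 2.6, FastQC 0.10.1 and mm10 were used, with no role given. The annotation release and strand setting of the counting are not given in the sources used here. Ribosomal RNA was depleted and libraries were made with NEBNext Ultra II kits, per the labels' protocols. Names, coordinates and exon lengths came from GENCODE M21 (21939 of 21965 identifiers matched, 26 did not), and promoter sequences from RefSeq (GRCm38.p6).

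Counts were fitted for all 3 groups in 1 model with edgeR 4.0.16 in R 4.3.3: filterByExpr with a minimum count of 10 (7719 genes kept, 14246 set aside), TMM scaling, quasi-likelihood test, Benjamini-Hochberg adjustment, threshold 0.05. CPM are counts per 1000000 of TMM-scaled library totals; log2 CPM have a prior count of 2. On simulated counts for BWF1 females against BALB/c, with 7465 genes in the fit, 54% of 100 genes changed 2-fold and 90% of 100 changed 4-fold were recovered, with 6 false calls, so a missed call at this depth is common. Nothing says that libraries of a group were prepared independently beyond the 3 mice of the design. The p-values set each difference against the spread between these libraries, which edgeR estimates partly from other genes (19.4 prior degrees of freedom). Correlations were tested over all 362880 orders of the 9 libraries, where a random draw had been planned. Reads without molecular identifiers are not independent molecules, and counting intervals cover counting error only. Alternatives tried were other scalings, no filter, DESeq2 1.42.0, fits of 2 groups, a replicate block, the file-name tag as a term and each library left out.

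The genes and lists were chosen with earlier results of these data known. Named genes were all members, the called or lowest-p genes of each list (at most 4), Bhlhe40 and Clock (chosen after their values were seen), and the 3 genes most like and most opposite to Arntl and to Dbp. The level of 1 marker gene, and of the marker list that holds it, is not reported here.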

Additional observations from a re-analysis of the deposited data

How the results depend on the processing

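Direction and call of the members were unchanged in 508 of 549 refits. The sign turned in 35, and a call was lost in 6, all of them Per1 against BALB/c. Since only Per1 was called in the main fit, an unchanged call of any other member means that it stayed uncalled. The cause of each change below was not tested. The count of called members stayed at 0 for BWF1 females against males of the cross. It became 0 in place of 1 for BWF1 females against BALB/c with library totals and with DESeq2, and for BWF1 males against BALB/c in the libraries tagged ORIG alone; on leaving out 1 library it ranged from 0 to 1 in both.

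All genes called for BWF1 females against males of the cross numbered 59 with library totals (45 higher, 14 lower, against 74 and 95), 304 without the filter, 108 with DESeq2, 98 with the 2 groups alone, 34 in ORIG libraries, 99 in RL libraries, and 58 to 198 without 1 library (58 without BWF1 male 3). For BWF1 females against BALB/c they numbered 130 with library totals (23 higher, 107 lower), 152 with DESeq2, 160 with the tag as a term and 184 to 370 without 1 library. For BWF1 males against BALB/c they numbered 433 without Lars2, 510 without the filter, 176 with DESeq2, 153 with the tag as a term, 484 with the earlier edgeR method, 274 (26 higher, 248 lower) with library totals and 119 to 393 without 1 library (119 without BALB/c female 2). Library totals moved the median log2 fold change of all genes by 0.16, -0.29 and -0.44 in these comparisons.

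With Dbp in place of Per1, Per2 and Nr1d2, the Arntl difference was 0.68 for BWF1 females against males of the cross, 0.24 for BWF1 females against BALB/c and -0.44 for BWF1 males against BALB/c. With Per1, Per2 and Nr1d2 kept, the difference ranged from -0.23 to 0.17, 0.81 to 1.10 and 0.81 to 1.22 without 1 library, in the same order.

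The log2 fold changes that turned sign were all uncalled. For BWF1 females against males of the cross, Arntl was 0.052 with library totals, 0.0023 with the replicate block and 0.15 in RL libraries; Per1 was -0.019 without the filter and -0.50 in ORIG libraries, where Per2 was 1.21, Cry1 -0.0026 and Tef -0.0026. For BWF1 females against BALB/c, Tef was -0.22 with library totals, -0.43 with the tag as a term and -0.73 in ORIG libraries. For BWF1 males against BALB/c, the tag as a term gave -0.081 for Cry1, 0.35 for Cry2 and 0.046 for Nr1d2, which was 0.29 in ORIG libraries. Without 1 library, the ranges that crossed 0 for BWF1 females against males of the cross were -0.21 to 0.10 (Arntl), -0.17 to 0.21 (Per1), -1.24 to 0.24 (Per2), -0.57 to 0.30 (Per3) and -1.12 to 1.00 (Nr1d1). For BWF1 females against BALB/c they were -0.70 to 0.15 (Per3), -2.01 to 0.11 (Nr1d1), -0.039 to 0.62 (Dbp) and -0.22 to 0.36 (Tef). For BWF1 males against BALB/c they were -0.26 to 0.014 (Per3), -0.35 to 0.066 (Cry2) and -0.40 to 0.067 (Nr1d2).

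Same-numbered libraries correlated at -0.0912 to 0.0589 after subtracting group means, and different-numbered ones at -0.118 to 0.141. No pairing by number was seen, and with 3 libraries per group at this depth the check cannot exclude one. With the number as a replicate block the counts of all genes called were 118, 255 and 240, and Per1 stayed called against BALB/c in the BWF1 females (adjusted p = 0.0175) and BWF1 males (adjusted p = 0.00962). Against BALB/c, the called immediate early genes numbered 6 to 9 for BWF1 females and 2 to 6 for BWF1 males over all alternatives, heat shock genes 3 to 5 and 3 to 4, glucocorticoid-responsive genes 1 to 3 in both, and cold-inducible genes 0 to 2 and 1 to 2. The ORIG and RL fits and the earlier edgeR method were chosen after seeing the data. Depth limits the untested members most: 1 count stood for up to 2.21 CPM.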
